A study of Solanum phureja with 20 samples.

Results

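The comparison set the leaf transcripts of 2xR5 against those of 2xR3, the pair of diploid lines in a potato ploidy series in which ploidy itself did not differ. Its members were the 10 of 20 two-colour arrays that carried a diploid line in leaf, and every value was turned to 2xR5 over 2xR3. The series, O37, came from chromosome doublings of a single monoploid plant with 12 chromosomes and a Solanum phureja background. Besides 2xR3 and 2xR5 it held a monoploid line (1x) and a tetraploid line (4x), so that every line shared that 1 source plant, and the labels did not say how 2xR3 and 2xR5 differed. Each line stood as 1 genotype, so a difference between the diploids was one between these lines and carried no estimate of how diploids of this series vary in general.

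Growing leaflets of 6 plants per line were taken 20 days after planting for RNA. The chamber was kept at 23.5 °C during a 15 h day and at 15.5 °C during a 9 h night, with humidity at 50% and daily 0.5x Hoagland nutrient solution. Replicates 1 and 2 each placed the lines in a closed loop of 4 arrays, in the order 1x, 2xR3, 4x, 2xR5 and back to 1x. In a loop no array held both diploids, so their difference was solved by a route through 1x and a route through 4x. Replicate 3 hybridised 2xR3 directly with 2xR5 on a dye-swapped pair of arrays. The design text calls the replicates biological, but which plants made up each was not labelled. P-values measured the spread between these 3 replicates per line. For leaf, the SE and p-values used a spread estimated over all lines together, 1x and 4x included, and moderated across clones.

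Doubling a monoploid genome gives plants that are homozygous at every locus and differ in the number of genome copies, not in parentage. Lines of equal ploidy from such a series therefore give the scale of difference between plants to which no step in ploidy contributes. The arrays were printed with cDNA clones, short copies of expressed potato transcripts, and a ratio compared 2 RNA samples on the same spot. Since only ratios were available, the level of a gene, and the amount of RNA per cell, were not measured, and fewer cells of a type could not be told apart from less RNA per cell.

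Each leaf array held values for 12403 to 18629 of 32448 spots. The dye-swapped diploid arrays of replicate 3 had the fewest, 12403 and 12446, while the loop arrays had 16308 to 18629. The dye-swapped 1x and 4x arrays of replicate 3 were also low, at 13110 and 13025. Both spots of a clone were less correlated on the diploid arrays, at 0.517 and 0.531 over clones. In the loops that correlation was 0.652 to 0.776, and on the 1x and 4x arrays of replicate 3 it was 0.751 and 0.719. The log2 values of the diploid pair of replicate 3 also spread least over clones. Their standard deviations were 0.204 and 0.227 against 0.284 to 0.427 in the loops, so the lower correlations alone do not show noisier spots. A total of 6001 clones had a value on all 12 leaf arrays and were tested. Of these, 631 carried exactly 1 gene symbol in the platform annotation, which can be old. The marker check of the leaf label was limited: PSBR, a photosystem II subunit of green tissue, had 2 clones measured and KST1, a guard-cell potassium channel, had 1, and ratios could not show the level of either. The direction Cy5 over Cy3 was taken from the usual convention of limma and was likely but not stated; if it were the other way, every sign below would turn.

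No clone differed between the diploid lines in leaf after adjustment. The count was 0 of 6001 (0%) at a Benjamini-Hochberg adjusted p under 0.05 in limma, where the smallest adjusted p was 0.21. At an unadjusted p under 0.05, 518 clones (8.63%) passed, of which 312 (5.20%) were higher and 206 (3.43%) lower in 2xR5. Among the 631 clones with a gene symbol, 66 (10.5%) passed that unadjusted threshold, 45 higher (7.13%) and 21 lower (3.33%). The value for 2xR5 minus 2xR3 had the same sign in all 3 replicates for 2101 clones (35.0%), 1111 higher (18.5%) and 990 lower (16.5%). In a fit that left out replicate 3, 4 clones passed the adjusted threshold, and these are described further on.

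The estimated differences were small as well as uncalled. Over the 6001 clones the log2 difference had a standard deviation of 0.121 and a median size of 0.071, against a median standard error of 0.0796. Differences ran from −0.594 to 1.079, with 17 clones at 1.5-fold or more and 2 at 2-fold or more. The 95% interval lay wholly within 1.5-fold in either direction for 5888 clones (98.1%) and within 2-fold for 5986 (99.8%). For nearly all measured clones, then, the interval did not reach a 2-fold difference between the lines.

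The tetraploid and monoploid lines gave the scale, since that pair was measured by the same loops and by a dye swap, with the same standard error. For 4x minus 1x, 2386 of 6001 clones (39.8%) passed the adjusted threshold, 1194 higher (19.9%) and 1192 lower (19.9%). Without replicate 1 the count was 1239 and without replicate 2 it was 194. The standard deviation of that difference over clones was 0.291, with 294 clones at 1.5-fold or more and 24 at 2-fold or more. The sign was the same in all 3 replicates for 3872 clones (64.5%).

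**Figure D1:**
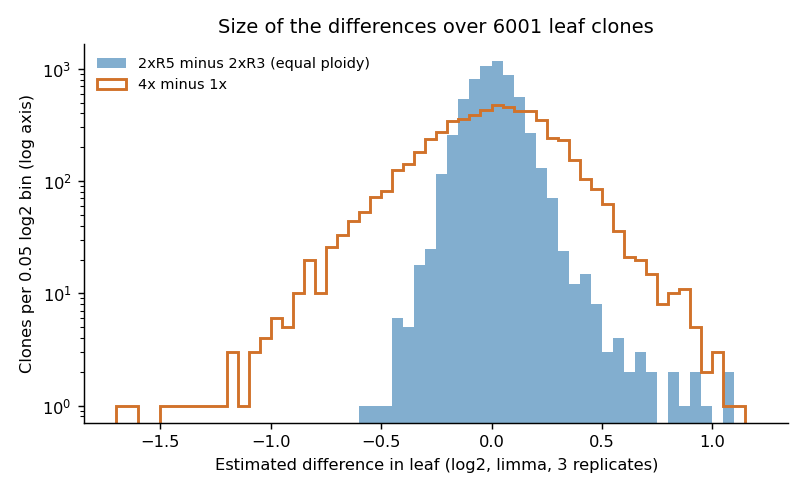
Number of leaf clones (log axis) in 0.05-wide bins of the estimated log2 difference, for 2xR5 minus 2xR3 (filled) and 4x minus 1x (line), over the same 6001 clones and 3 replicates. The equal-ploidy distribution is narrower, with a standard deviation of 0.121 against 0.291, and its right tail reaches about as far, to 1.079.

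Repeatability between replicates was low for the diploid pair. Across the 6001 clones, 2xR5 minus 2xR3 in replicate 1 had a Pearson correlation of 0.13 with replicate 2 and 0.104 with replicate 3, while replicates 2 and 3 correlated at 0.368; the Spearman values were 0.073, 0.117 and 0.379. For 4x minus 1x the Pearson correlations of the same pairs were 0.784, 0.612 and 0.73. These correlations are across clones, which are not independent replicates, and are given as descriptions. The spread of 2xR5 minus 2xR3 over clones had standard deviations of 0.197, 0.169 and 0.168 in replicates 1 to 3 as deposited. With arrays scaled to a common spread these were 0.156, 0.145 and 0.276, so replicate 3 was then the widest.

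The routes of measurement carried the dye effect in different ways. Within a loop, the route through 1x and the route through 4x carried the dye effect of a clone with opposite sign, and their Pearson correlation across clones was −0.577 in replicate 1 and −0.601 in replicate 2. Their mean, in which that effect cancels, is the value used. The dye effect itself had a standard deviation of 0.186 and 0.169 in the loops, as large as the difference sought, and 0.0957 in the dye-swapped pair of replicate 3. Across clones its Pearson correlation was 0.859 between replicates 1 and 2. With replicate 3 it was −0.103 for replicate 1 and −0.13 for replicate 2, so the loops and that pair did not share it. The dye-swapped arrays, turned the same way, had a Pearson correlation of 0.511.

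The diploid difference of each replicate was also set beside 4x minus 1x averaged over the other replicates, which the design text calls biological replicates. The Pearson correlation across clones was 0.402 for replicate 1, 0.172 for replicate 2 and 0.107 for replicate 3, and the Spearman correlation was 0.418, 0.178 and 0.234. After scaling the arrays to equal spread, Pearson values were 0.256, 0.164 and 0.1 and the Spearman values 0.29, 0.173 and 0.232. All were positive, and the order of replicates 2 and 3 depended on the measure.

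**Figure D2:**
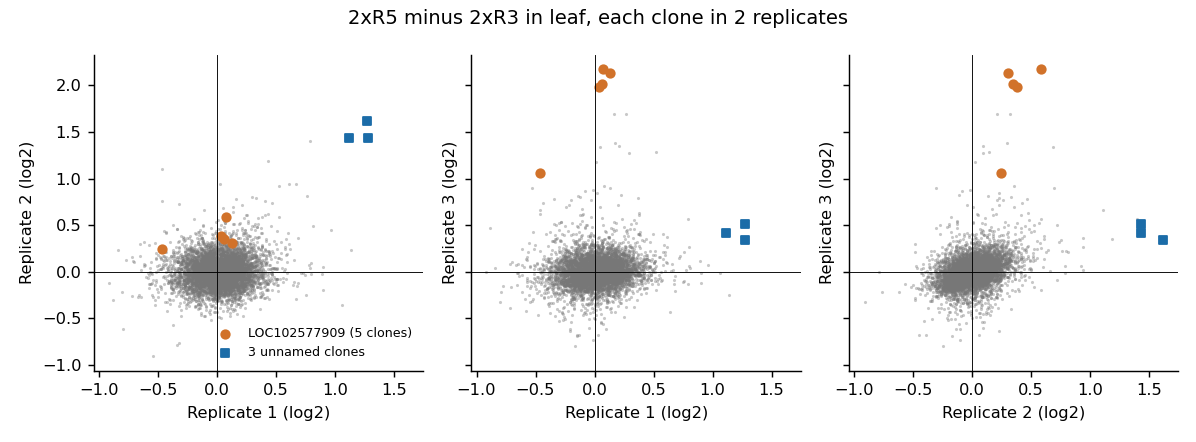
Log2 value of 2xR5 minus 2xR3 for each of 6001 leaf clones in 1 replicate against another; orange circles are the 5 clones of LOC102577909 and blue squares 3 clones without a gene symbol. The cloud is nearly round for replicate 1 against the others, with Pearson correlations of 0.13 and 0.104, and tilted for replicates 2 and 3, at 0.368.

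Because no named clone passed, the 20 named genes with the smallest p are given as values, 1 clone per gene. Of these, 15 were higher and 5 lower in 2xR5, their adjusted p ran from 0.285 to 0.509, and 17 carried only a locus symbol (LOC) with no description. Those locus symbols are given no role here.

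Among the annotated enzymes, FLS encodes flavonol synthase, which makes flavonols in the flavonoid pathway. One of its clones read 0.34, 0.48 and 0.56 in replicates 1 to 3, an estimate of 0.46 ± 0.15 (log2, SE, n = 3; limma adjusted p = 0.476). All 3 replicates were above 0. That SE draws on the spread of all lines, and 4x minus 1x of this clone read −1.28, −0.82 and −0.22. A limma fit on the 3 diploid differences alone gave an adjusted p of 0.236. The first spot of this clone did not have a value on every leaf array, so its values rest partly on the second spot alone. The other FLS clone read −0.09, 0.20 and 0.26, with an estimate of 0.12. The clones of FLS also disagreed in 4x minus 1x, at −0.77 for the first and 0.62 for the other. F3H, flavanone 3-hydroxylase, which acts just before FLS, read −0.05, −0.52 and −0.17, with a 95% interval of −0.65 to 0.16. The flavonoid clones thus lay on both sides of 0.

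ERS, an ethylene receptor, read 0.25, 0.13 and 0.19, all above 0 (0.19 ± 0.07, log2, SE, n = 3; limma adjusted p = 0.495). Beside the monoploid, 2xR3 was at 0.27 (adjusted p = 0.077) and 2xR5 at 0.46 (adjusted p = 0.003), and 4x minus 1x was 0.68. CYCD3.3, a D-type cyclin that acts at entry into the cell cycle, read 0.01, −0.48 and −0.28. Its estimate was −0.25 ± 0.09 (log2, SE, n = 3; limma adjusted p = 0.509), and replicate 1 did not share the sign of the others. The estimate was −0.13 without replicate 2 and −0.38 without replicate 1. Both diploids were below the monoploid for CYCD3.3, by −0.80 in 2xR3 (adjusted p = 0.006) and by −1.05 in 2xR5.

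**Figure D3:**
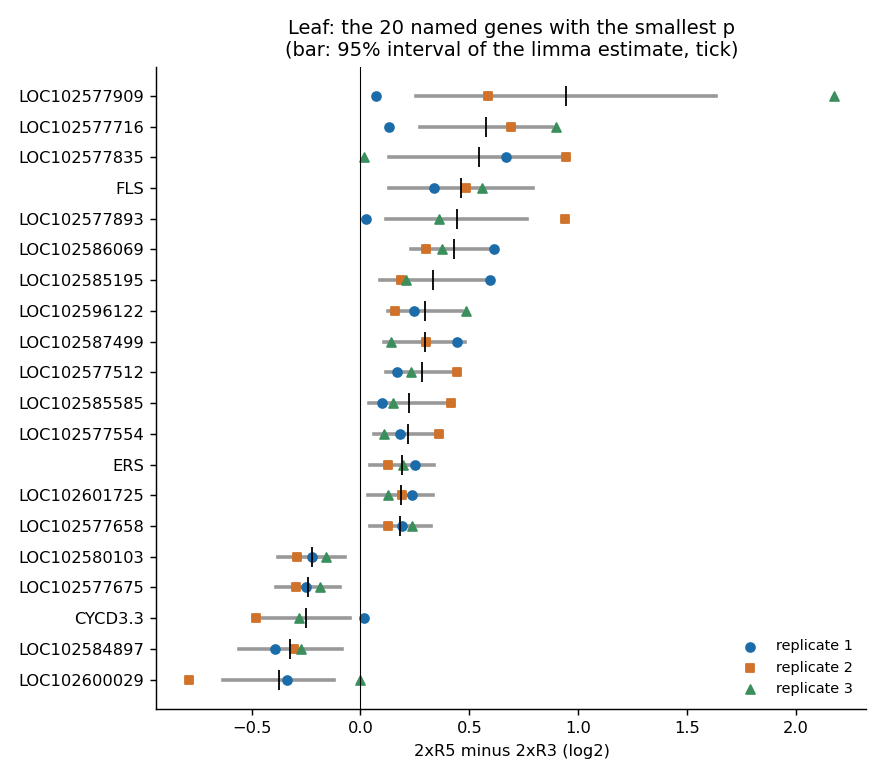
The 20 named genes with the smallest p in leaf: log2 value of 2xR5 minus 2xR3 in each replicate (symbols), the limma estimate (tick) and its 95% interval (grey bar). Intervals exclude 0 because the genes were chosen by p; no adjusted p is below 0.285, and LOC102577909 has the widest spread, from 0.07 to 2.18.

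Among the locus symbols, LOC102586069 had the smallest p. Its clone read 0.61, 0.30 and 0.37, an estimate of 0.43 ± 0.09 (log2, SE, n = 3; limma adjusted p = 0.285). All 4 of its clones were higher in 2xR5, at 0.29 to 0.43, and each had an unadjusted p under 0.05. Clones of a gene share sequence and RNA samples, so they repeat the spot and not the plants.

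Other loci with several clones mostly kept to 1 side. LOC102596122 had 4 of 4 clones higher, at 0.26 to 0.30, and its chosen clone read 0.25, 0.16 and 0.48. LOC102577512 had 8 of 8 clones higher, at 0.03 to 0.28, of which 4 had an unadjusted p under 0.05 and 5 were below 0 in replicate 1. LOC102587499 had 8 of 8 higher, at 0.09 to 0.29, with 2 at that p and 3 below 0 in replicate 1. LOC102601725 had 8 of 8 higher, at 0.09 to 0.19, with 1 at that p and 0 below 0 in replicate 1. On the lower side, LOC102577675 had 3 of 3 clones lower and read −0.25, −0.29 and −0.18, while LOC102580103 had 4 of 5 lower and read −0.22, −0.29 and −0.16. LOC102584897, with 1 clone, read −0.39, −0.30 and −0.27. Among all 63 genes with at least 3 measured clones, 43 had every clone on the same side of 0.

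For some locus symbols the replicates lay far apart. LOC102577716 read 0.13, 0.69 and 0.90, LOC102577893 read 0.03, 0.94 and 0.36, and LOC102600029 read −0.34, −0.79 and −0.00. In each, 1 replicate lay near 0 while another was beyond 0.6 in size. Their adjusted p values were 0.298, 0.476 and 0.476. Without replicate 2 the estimate for LOC102577893 went from 0.44 to 0.19 and that for LOC102600029 from −0.38 to −0.17.

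LOC102577909 was highest in replicate 3. Its 5 clones read 1.06 to 2.18 in that replicate, on both arrays of the dye swap, but −0.465 to 0.13 in replicate 1 and 0.24 to 0.58 in replicate 2. The clone with the smallest p read 0.07, 0.58 and 2.18, an estimate of 0.94 ± 0.31 (log2, SE, n = 3; limma adjusted p = 0.476), and without replicate 3 it was 0.33 (adjusted p = 0.756). In replicate 3 as a whole, 13 clones reached 2-fold, against 5 in replicate 1 and 6 in replicate 2, and in each replicate all of these were higher in 2xR5. The 13 of replicate 3 spanned 1.06 to 2.18 in replicate 3, −0.465 to 0.52 in replicate 1 and 0.03 to 0.69 in replicate 2. Of the 13, 5 were LOC102577909, 1 was LOC102604256, which read 0.21, 0.10 and 1.35, and 7 had no symbol. The lower spot counts and spot-to-spot correlations of these arrays move with this pattern, and their part in it was not tested.

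The opposite pattern, high in both loops and low in replicate 3, was seen in LOC102577835. Its 2 clones read 0.52 and 0.67 in replicate 1, 0.92 and 0.94 in replicate 2, but 0.06 and 0.02 in replicate 3. All 8 loop routes lay between 0.45 and 1.01, through 1x and through 4x alike. The estimate for the clone with the smaller p was 0.54 ± 0.19 (log2, SE, n = 3; limma adjusted p = 0.495).

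The smallest p values of all belonged to clones without a gene symbol. The clone on spots 134227 and 136086 read 1.28, 1.43 and 0.51, an estimate of 1.08 ± 0.18 (log2, SE, n = 3; limma adjusted p = 0.21). The clone on spots 140229 and 141073 read 1.27, 1.62 and 0.34, also with an estimate of 1.08, and that on spots 151149 and 151993 read 1.11, 1.43 and 0.41. All 3 were above 0 in every replicate and on every route, and lowest in replicate 3. Without replicate 3 these and 1 further unnamed clone passed the adjusted threshold, at 0.79 to 1.45 with limma adjusted p from 3.13e-04 to 0.00871. The 4 clones were chosen by that result and were all higher in 2xR5. A clone with more even values, on spots 132784 and 133628, read 0.38, 0.41 and 0.61 (0.47 ± 0.08, log2, SE, n = 3; limma adjusted p = 0.21).

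**Figure D4:**
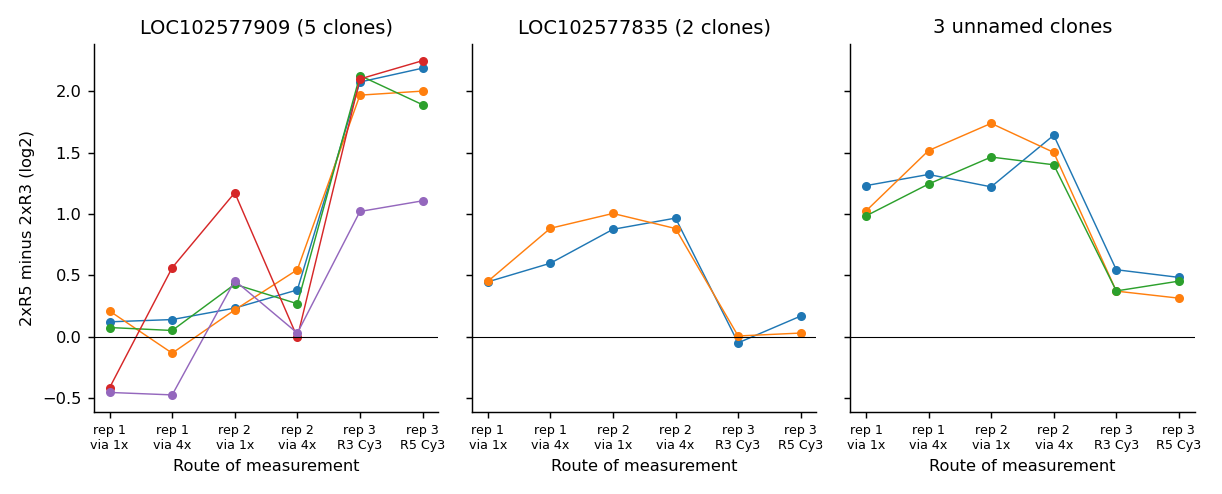
Log2 value of 2xR5 minus 2xR3 on each route of measurement: through 1x and through 4x in the loops of replicates 1 and 2, and on each array of the dye swap in replicate 3, with the Cy3 line named; a line joins the values of 1 clone. LOC102577909 is at 1.02 to 2.25 on the replicate 3 arrays and below that in the loops but for 1 route of 1 clone at 1.17, while LOC102577835 and the 3 unnamed clones are highest in the loops.

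Genes of known role were then counted in 10 lists. Together the lists had 70 measured clones of 39 genes, of which 0 passed the adjusted threshold (0% of all clones did) and 7 had an unadjusted p under 0.05, against 8.63% of all clones. In all, 47 were higher and 23 lower in 2xR5, with a median of 0.05 beside 0.01 over all clones tested. The 95% interval stayed within 1.5-fold for 68 of the 70, the exceptions being the FLS clone above and F3H.

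In the defence and wound list, 6 of 6 clones of 4 genes were higher, with a median of 0.17. Of these, 3 had an unadjusted p under 0.05, beside 8.63% of all clones tested. HPL, hydroperoxide lyase, which makes leaf volatiles upon wounding, had 2 clones that read 0.14, 0.15 and 0.25, and 0.07, 0.21 and 0.18. It was added to the list once the annotation had been seen, and its clones were 2 of those 3. VPE2, a vacuolar processing enzyme of the cysteine protease class, read 0.28, 0.26 and 0.13. These 3 clones were above 0 in every replicate, yet their adjusted p values were 0.555 to 0.578. STWRKY8, a WRKY transcription factor, read −0.12, 0.43 and 0.36, so replicate 1 was on the other side. The symbol R1, which may stand for a starch-phosphorylating enzyme or for a late blight resistance gene, had clones at 0.10 and 0.09 and was counted in both lists.

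In the hormone and development list, 4 of 6 clones were higher and 2 lower, with a median of 0.04. Besides ERS and CYCD3.3, IAA3, an Aux/IAA repressor of auxin signalling, read −0.03, 0.25 and 0.30 (adjusted p = 0.573). IAA2, of the same family, was at 0.03, and CDPK2, a calcium-dependent protein kinase, at 0.06. BEL5, a transcription factor whose transcript moves to stolons and promotes tuber formation in potato, was at −0.05 with a 95% interval of −0.22 to 0.12.

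All 8 membrane transport clones were higher in 2xR5, with a median of 0.11 and no unadjusted p under 0.05. PHA2, a plasma membrane proton pump, had 4 of the 8 clones, at 0.10 to 0.14, and PHA1, another such pump, stood at 0.04. The potassium channels KST1 and SKT3 were at 0.07 and 0.12, and MIP2, of the major intrinsic protein family, at 0.07. The upper ends of the intervals in this list reached 0.35 at most.

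In starch and sucrose metabolism 6 of 7 clones were higher, with a median of 0.10. GBSS, the granule-bound starch synthase that makes amylose, had clones at 0.12 and 0.10, AMYA1, an alpha-amylase, was at 0.16 and PAIN-1, vacuolar acid invertase, at −0.04. Both clones of PSBR were at 0.03 and 0.12, and replicate 1 fell below 0 for the first of them. None of these had an unadjusted p under 0.05.

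The methionine and amino acid list had 10 of 11 clones higher, with a median of 0.07. METK1, S-adenosylmethionine synthetase, contributed 8 of the 11, at 0.01 to 0.12. ARD, of the methionine salvage cycle, was at 0.03, SHKA, which opens the shikimate pathway, at 0.07 and BCAT2, a branched-chain aminotransferase, at −0.06. The list's count thus rested largely on 1 gene.

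Of the glycolysis and fermentation clones 5 were higher and 11 lower, with a median of −0.02. All 8 clones of GAPDH, the glycolytic glyceraldehyde-3-phosphate dehydrogenase, were lower but by little, at −0.08 to −0.01, and every interval in this list lay between −0.30 and 0.29. PK, pyruvate kinase, was at −0.09, ADH1, alcohol dehydrogenase, at 0.04 and GPI, glucose-6-phosphate isomerase, at 0.03 and 0.10. For these central enzymes the data bounded any difference between the lines well inside 1.5-fold.

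Redox enzymes were split, with 3 clones higher, 3 lower and a median of −0.01. The quinone reductase NAD(P)H:QR read 0.20, 0.36 and 0.13, the catalase CAT1 had clones at 0.14 and −0.05, and the dehydroascorbate reductases DHAR and DHAR2 lay between −0.10 and 0.02. In the remaining list 3 clones were higher and 4 lower: the 3 clones of SRE1A were at 0.17 to 0.20, those of SI1 at −0.07 to −0.03 and PME1, a pectin methylesterase, at −0.10. SI1 was between −0.32 and −0.26 in replicate 3 and between −0.04 and 0.16 in the loops.

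**Figure D5:**
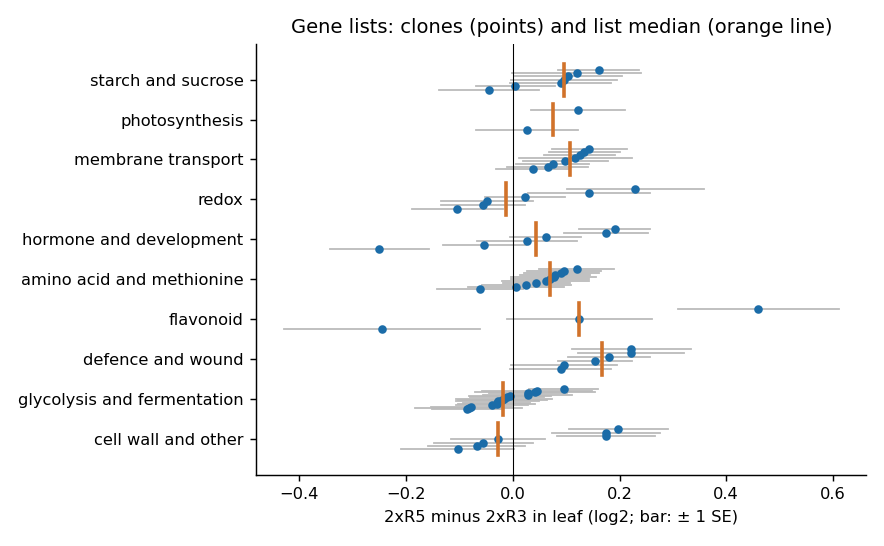
Log2 difference 2xR5 minus 2xR3 in leaf for each clone of 10 gene lists (points, with 1 SE as grey bar) and the median of each list (orange line). List medians lie between −0.03 and 0.17, and no clone passed the adjusted threshold.

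Each diploid was also set beside the monoploid, which asks where each line lay on the same scale. For 2xR3 minus 1x, 170 of 6001 clones (2.83%) passed the adjusted threshold, 79 higher (1.32%) and 91 lower (1.52%). For 2xR5 minus 1x, 1176 (19.6%) passed, 558 higher (9.30%) and 618 lower (10.3%). The standard deviation over clones was 0.188 for 2xR3 and 0.252 for 2xR5. These comparisons share the 1x samples, and the difference in counts was not itself tested; the direct test between the diploids is the one that gave 0 calls. No array of replicate 3 linked a diploid to 1x, so only the loops tied the diploids to 1x. The fit used all 12 leaf arrays, however, so the replicate 3 difference between the diploids also entered the value of each against 1x. Without replicate 3 the counts were 194 for 2xR3 and 1074 for 2xR5. Leaving out replicate 1 or 2 reduced the counts to 3 or 1 for 2xR3 and to 54 or 15 for 2xR5.

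Of the 20 named genes, 14 passed for 2xR5 minus 1x and 3 for 2xR3 minus 1x, beside 19.6% and 2.83% of all clones tested. The chosen clone of LOC102586069 was at 0.27 in 2xR3 and 0.70 in 2xR5, and the chosen clone of LOC102587499 at 0.54 and 0.84, but the 8 clones of that locus ran from −0.27 to 0.66 in 2xR3 and from −0.18 to 0.85 in 2xR5. The chosen clone of LOC102601725 was at 0.26 and 0.44, with its 8 clones at −0.16 to 0.33 and −0.03 to 0.51. LOC102600029 went the other way, at 0.84 in 2xR3 and 0.47 in 2xR5. Since these genes were chosen on the difference between the diploids, the unequal counts and values are part of that choice.

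The same lines were compared in root tips, taken 7 days after planting with amplified RNA, in loops of replicates 4 and 5. For 2xR5 minus 2xR3 in root, 0 of 8245 clones (0%) passed and 301 (3.65%) had an unadjusted p under 0.05. In a joint fit of both tissues 11 of 5121 clones (0.215%) passed in root, 1 higher (0.0195%) and 10 lower (0.195%), and without replicate 4 or 5 the joint fit gave 2 or 1. Across the 5121 clones measured in both tissues, the leaf and root differences had a Pearson correlation of −0.093 and a Spearman correlation of −0.166. The root replicates had a Pearson correlation of −0.004 with each other over 8245 clones. The difference leaf minus root was called for 0 of 5121 clones (0%) by limma, with 375 (7.32%) at an unadjusted p under 0.05 and a smallest adjusted p of 0.236.

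Of the 20 named leaf genes, 14 were measured in root. In 8 of them both root loops had the sign opposite to leaf, in 2 both had the same sign and in 4 the loops disagreed. Over all 5121 clones measured in both tissues the shares were 30.1% opposite, 20.2% the same and 49.6% with loops that disagreed. The 14 genes were chosen on their leaf values, and no test was made of these counts. CYCD3.3, lower in 2xR5 leaf, read 0.57 and 0.27 in root, and LOC102577835 read 0.72 and 0.27. The adjusted p of leaf minus root for CYCD3.3 was 0.236 and for LOC102577835 0.982.

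Some list genes lay near 0 in leaf and further away in root. All METK1 clones read −0.40 to −0.29 in replicate 4 and −0.65 to −0.53 in replicate 5. In the root fit alone none passed, each with a limma adjusted p of 0.998. In the joint fit 1 of them passed (limma adjusted p = 0.0396), while the others were at 0.0996 to 0.274. Leaf minus root for METK1 was 0.47 to 0.58, with adjusted p of 0.236 to 0.443. ADH1 read 0.89 and 0.84 in root against 0.04 in leaf. Of the CAT1 clones, 1 read 1.29 and 1.10 in root against 0.14 in leaf, while the other read −0.01 and −0.06 against −0.05. In root, ADH1 and the first CAT1 clone did not pass, with a limma adjusted p of 0.998 each in the root fit alone. In the joint fit these were 0.229 and 0.531. The difference between tissues passed neither for ADH1 nor for the first CAT1 clone, with adjusted p of 0.552 and 0.658.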

How the data were processed

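The deposited values are log2 ratios per spot, centred on each array as deposited, with column medians from −0.013 to 0.014. limma is named in the submitters' processing notes; its version, background correction and within-array method are not given in the sources used here. Every deposited value lay within 0.0025 of the log2 of a 2-decimal ratio. Spots printed in duplicate were paired into clones by the print layout (15360 pairs) and averaged, or the spot with a value was used where the other had none. Both spots had a value on all 12 leaf arrays for 4335 of the 6001 clones tested. Symbols came from the platform annotation; clones with several symbols were not named.

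From these values, per-line log2 values were solved by least squares within each loop, and the dye-swapped pairs of replicate 3 were averaged. limma 3.58.1 in R 4.3.3 (lmFit, eBayes) fitted line with replicate as a block on all 12 leaf arrays, with 5 residual degrees of freedom, two-sided tests and Benjamini-Hochberg adjustment over 6001 clones at 0.05. An exact test on 3 paired replicates could not go below p = 0.25 and was not used. Scripts were tested on simulated data. The number of arrays limits the precision, and no depth applies. Named genes were the 20 with the smallest p among clones with 1 symbol, since none passed. Members and lists were chosen with earlier results of these data known, and 10 list genes were added once the annotation had been seen. Alternatives covered array scaling and centring, spot use, the replicate block and leaving out each replicate.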

Additional observations from a re-analysis of the deposited data

How the results depend on the processing

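The count of 0 clones for 2xR5 minus 2xR3 in leaf was also obtained under 12 of 13 alternatives, among them scaling or centring the arrays, 1 spot alone, and fits on the diploid arrays. Unadjusted counts ran from 309 to 683, and the smallest adjusted p among those 12 was 0.0505, with scaled arrays. Leaving out 1 replicate gave 0 to 4 calls, the 4 without replicate 3. For 4x minus 1x, leaving out a replicate gave 194 to 2159 calls, for 2xR3 minus 1x 1 to 194, and for 2xR5 minus 1x 15 to 1074; the cause was not tested. Scaled arrays left 67 calls for 2xR3 minus 1x. In root, the joint fit of 5121 clones, chosen after seeing the data like the alternatives for the comparisons with 1x, gave 11 calls. Leaving out a root replicate within that joint fit gave 1 to 2; the 1 root sample per line then left is assumed to vary like the other samples, and these counts compare with 11, not with the 0 of 8245 in the root fit alone. For leaf minus root, scaled arrays gave 2 calls and leaving out a replicate 0 to 2. All 250 alternative values of the 20 named genes kept their direction and stayed above the threshold, with a smallest adjusted p of 0.0565. These genes were chosen by p in the same data, and 19 of the 20 had the same sign in all 3 replicates. Their kept direction was thus largely set by that choice. Leaving out 1 replicate moved some estimates by over 1.5 times, such as CYCD3.3 to −0.13 or −0.38.

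Ratios exist only within an array, so the replicate block is part of the design and the numbers tie arrays and not plants. Without the replicate block the leaf diploid comparison gave 0 calls and 492 unadjusted ones, the root one 0, and 2xR3 minus 1x 423. With 3 replicates per line and 6001 tests, differences near the median standard error of 0.0796 were not detectable. Much larger ones could be missed too: the largest estimates, 1.08 with SE of 0.18 and 0.19, were not called (limma adjusted p = 0.21). The smallest difference that could have been called was not worked out. Differences between leaf and root were tested, and none passed in the main joint fit.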
